A study of Mus musculus with 4 samples.

Results

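The 10 genes described here encode molecular chaperones: Hspa1a, Hspa1b, Dnajb1, Hsph1 and Hsp90aa1, which are known to be induced by heat, and Hspa8, Hsp90ab1, Hspa5, Hsp90b1 and Calr, which most cells express constantly. They were 10 of the 21938 protein-coding genes of the annotation. The 10 were selected on the width and the enrichment of their promoter domains in these same data, so the values below are a description and carry no test. The mark mapped was trimethylation of lysine 4 on histone H3 (H3K4me3), with ChIP-seq, the sequencing of DNA recovered by chromatin immunoprecipitation, in left cerebral cortex. The tissue came from adult female B6CASTF1/J mice, hybrids of a C57BL/6J and a CAST/EiJ parent, aged 2 months and with no treatment named, so no animal was heat-shocked as far as the labels say. Pool J was biological replicate 1, and pool I was number 2. Each combined 4 biosamples and was sequenced as 2 technical libraries, which entered 1 peak list per pool, and all 4 libraries carried a single donor record. A further list held the peaks called as replicated. This list is not the overlap of the pool lists, since at Hspb9 it held a promoter peak that neither pool list did.

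H3K4me3 marks the nucleosomes around the start sites of genes that are being transcribed or are ready to be, and it is usually sparse on the start site itself, where nucleosomes are displaced. Chaperones help proteins to fold. Cytosolic Hsp70 proteins work with Hsp40 partners that bring them clients and with Hsp110 proteins that exchange their nucleotide, Hsp90 proteins mature kinases and receptors, and a separate set serves the endoplasmic reticulum. After heat shock the factor HSF1 binds heat shock elements and induces the inducible genes within minutes, whereas the reticulum set answers to unfolded proteins in that compartment through its own stress element.

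Positions are in bases from the main annotated transcript start of the gene, negative upstream. A promoter was called marked when a peak lay within 1000 bases of any annotated transcript start, and neighbouring peaks with at most 1000 bases between them were joined into 1 domain. All 10 chaperone genes were marked in the pool J list, in the pool I list and in the replicated list, where the shares over all protein-coding genes were 63.9%, 64.8% and 65.2%. The enrichment of a peak is the authors' own value for it, taken as fold over a control, and is used only to rank genes within a list; its percentile is that of the gene's highest promoter peak among all marked protein-coding genes of the list. In bulk tissue, a mark in fewer cells and a weaker mark in each cell cannot be told apart. The marker genes of the tissue were as labelled in the main. In every list 10 of 10 neuronal genes were marked, as were 2 of 2 genes each of astrocytes, oligodendrocytes and endothelium. Of 4 genes of liver, heart, pancreas and red blood cells, 0 were marked in any list. Of 3 microglial genes 0 were marked in pool J, 1 in pool I and 2 in the replicated list.

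The members' domains ranged from narrow and weak to among the strongest of the cortex. Median width was 3004 bases in pool J, 3526 in pool I and 3208 in the replicated list, where the median over all 14293 marked genes was 2124 bases. The heat-inducible genes had a median of 2530 bases in pool J, 2843 in pool I and 2821 in the replicated list, and the constitutive genes 3457, 3857 and 3652. The replicated difference of −831 bases rested in part on Hspa1a and Hspa1b, without which it was −593 bases, a comparison added after the values were seen. Without the pair the pool J list gave −554 bases and the pool I list −168, where the medians were 3689 bases for the inducible and 3857 for the constitutive genes. The groups overlapped: Hsph1 was wider than 3 of the 5 constitutive genes in the replicated list. Median enrichment percentile was 63.5 for heat-inducible genes and 89.8 for constitutive genes in the replicated list, a difference of −26.3. By pool it was −55.3 (J) and −13.9 (I).

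**Figure D1:**
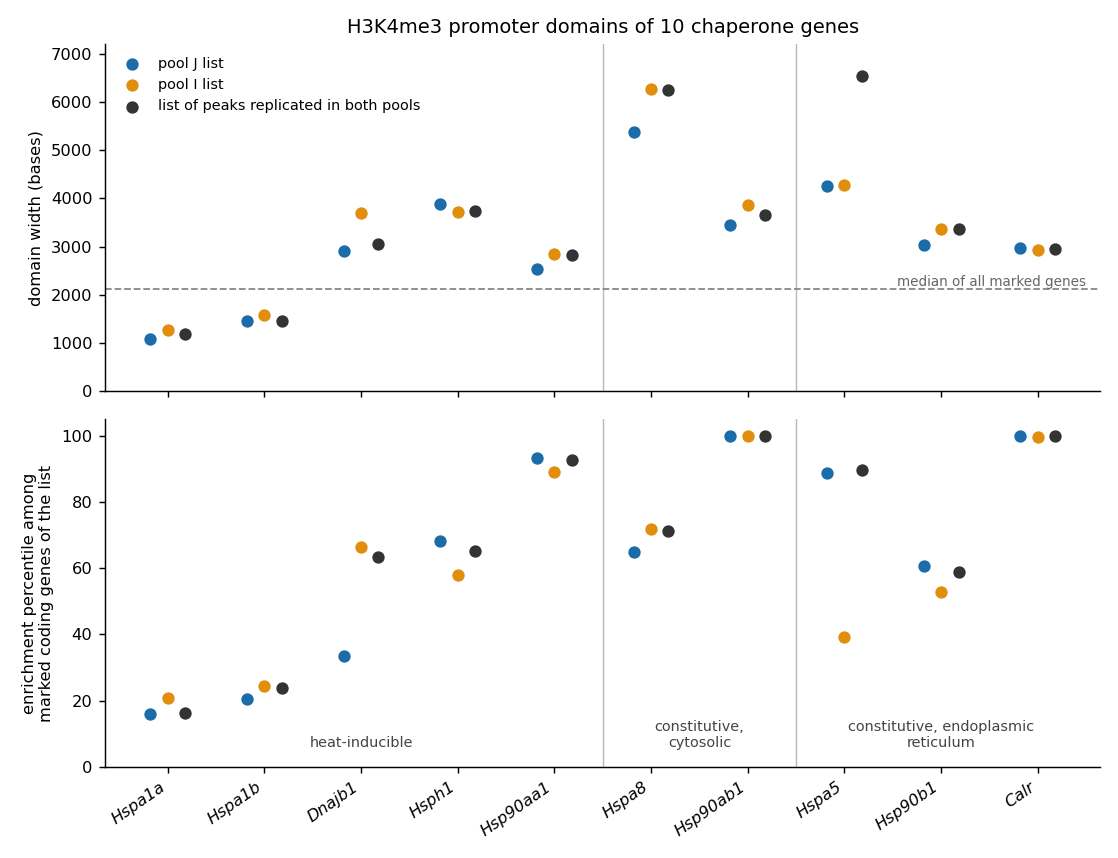
Domain width in bases (top) and enrichment percentile among marked protein-coding genes of the same list (bottom) for the 10 genes, with 1 point per peak list and the dashed line at the median of 2124 bases. Hspa1a and Hspa1b lie lowest in both panels, and Hspa5 has a replicated domain of 6544 bases above both of its pool values.

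Ordered by the mean of the pools, the widths were 1180 ± 122 bases at Hspa1a, 1525 ± 93.3 at Hspa1b, 2686 ± 221 at Hsp90aa1, 2953 ± 25.5 at Calr and 3200 ± 231 at Hsp90b1 (SD, n = 2 pools). Above these stood 3296 ± 556 bases at Dnajb1, 3657 ± 283 at Hsp90ab1, 3810 ± 116 at Hsph1, 4271 ± 11.3 at Hspa5 and 5820 ± 641 at Hspa8 (SD, n = 2 pools). Among Hsp90b1, Dnajb1, Hsp90ab1 and Hsph1 each neighbouring pair overlapped in its pool values, so that their order is not resolved. The other neighbouring pairs did not overlap, although the values of Dnajb1 also span those of Calr. The wider pool exceeded the narrower by less than 1.2 times at 9 of 10 genes, with Dnajb1 at 1.27, against 79.0% of the 13961 genes marked in both pools.

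Hspa1a and Hspa1b encode the stress-induced Hsp70 and are single-exon neighbours on chromosome 17. Both had domains that were narrow, weak and weighted to the upstream side. The Hspa1a domain spanned chr17:34971702-34972892 of mm10 in the replicated list, with 1094 bases in pool J, 1267 in pool I and 1191 in the replicated list, and enrichments of 11.76, 14.06 and 11.61. Hspa1b, at chr17:34958787-34960237, had 1459, 1591 and 1451 bases and enrichments of 13.55, 15.18 and 14.63. These were the lowest widths and the lowest enrichments of the 10 genes in each list. In the replicated list Hspa1a stood at percentile 13.4 of width and 16.2 of enrichment, and Hspa1b at 21.8 and 23.9.

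The promoters of the pair are nearly the same sequence. The 250 bases before the start of Hspa1a, from RefSeq on the minus strand of GRCm38.p6 at chr17:34972157-34972406, are shown because they lie inside the domain in every list and are nearly shared by both copies, with a heat shock element pair in capitals.
Hspa1a promoter: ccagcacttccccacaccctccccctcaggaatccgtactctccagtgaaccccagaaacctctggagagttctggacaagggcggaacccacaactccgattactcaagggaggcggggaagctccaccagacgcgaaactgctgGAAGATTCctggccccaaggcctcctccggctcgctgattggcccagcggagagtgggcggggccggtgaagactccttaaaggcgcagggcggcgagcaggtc
Hspa1b, at chr17:34959239-34959488 on the same strand, had 247 of the 250 bases in common. Counted from 1 at the left end, with the Hspa1a base first, the differences were C44T, T47C and T249G. The capitals match GAANNTTC, which lies from −104 to −97 in both copies. Either this pair or TTCNNGAA, on either strand, was found in 15.1% of all 32851 RefSeq promoters of 300 bases (250 before to 50 after the start). Both copies also held 3 matches to the GC box (GGGCGG or CCGCCC, found in 35.7% of promoters), and 1 to the CCAAT box (CCAAT or ATTGG, 37.4%). Neither held TATAAA, which 13.6% of promoters did. Matches are letters in a window, and occupancy by a factor was not measured.

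Where the other domains reached well into the gene, these did not. The Hspa1a domain had 419, 517 and 455 bases from the start onward in pool J, pool I and the replicated list, or 38.3%, 40.8% and 38.2% of its width. At Hspa1b the values were 447, 496 and 452 bases, or 30.6%, 31.2% and 31.2%. In the replicated list these were 2 of 10 members with more of the domain upstream than downstream, against 17.0% of 12560 marked genes, whose median was 67.7% downstream. The other 8 members had 58.7% to 78.5% downstream. The highest point lay at −337 at Hspa1a in the replicated and pool J lists and at 114 in pool I. At Hspa1b it lay at −320, −332 and −331 in pool J, pool I and the replicated list.

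Much of the sequence under and beyond the downstream side is repeated in the genome. Over the first 1000 bases of the gene, 9.64% of the 36-base words of Hspa1a and 10.3% of those of Hspa1b occurred once in the genome on either strand, whereas in the 1000 bases before the start 81.6% did at both. In the 1000 bases past the downstream edge of the replicated domain the shares were 3.73% and 7.46%. Inside the domains too the sequence was partly repeated: 22.1% of words in the downstream part of the Hspa1a domain and 23.7% in that of Hspa1b occurred once. In steps of 50 bases, with each word placed by its downstream end, 0% to 4.00% did from −150 to −1 and 0% from 200 to 349. This held at both genes and under the peaks of every list. The peaks thus ran over repeated sequence on both sides of the start, and their downstream edges lay at 418 to 516. From 350 to 449 the share found once was 16.0% to 44.0% at Hspa1a and 28.0% to 44.0% at Hspa1b. From 450 to 949 it was 0% at both. The coding sequences of the pair were 99.4% identical. The longest run of repeated words, counted from the upstream end of its first word, began 387 bases after the start in both genes. It ended 1150 bases after the start in Hspa1a and 1024 in Hspa1b. At the other 8 members the first 1000 bases had 86.6% (Hsp90aa1) to 100% of words found once. No source used here says how reads that match several places were treated. The part of repeated sequence in the short downstream side was not tested. The upstream side also differs in content between the copies: the Hspa1a domain holds the start of Hspa1l, an Hsp70 gene expressed mainly in testis, on the opposite strand 547 bases away.

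**Figure D2:**
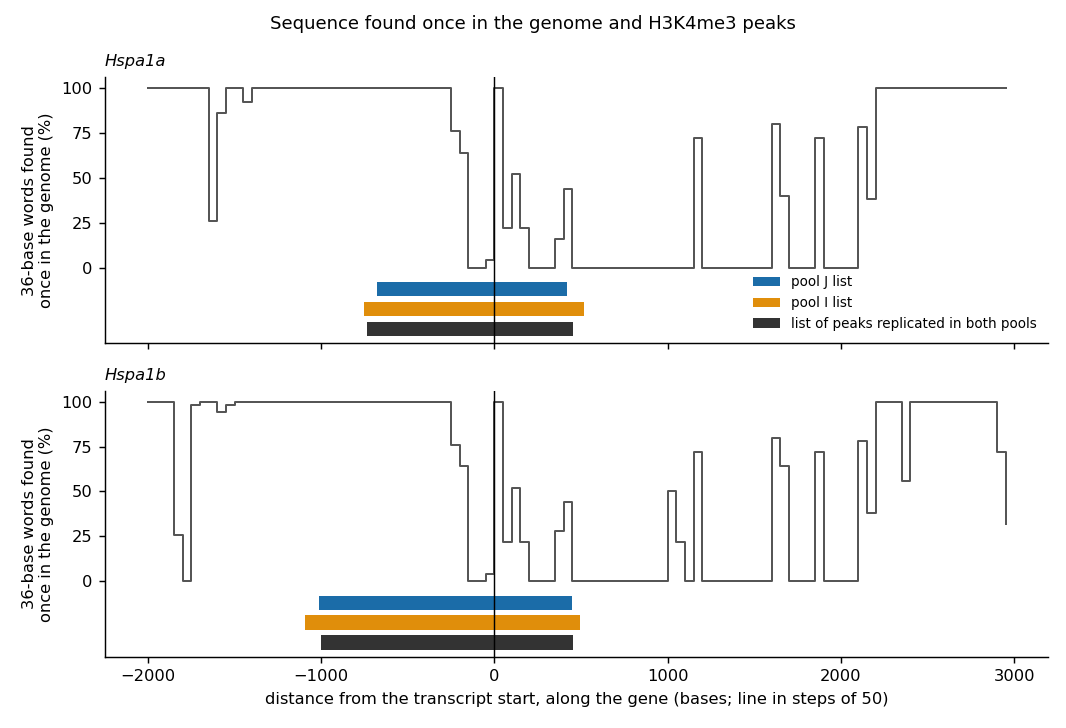
Percent of 36-base words that occur once in the genome, in steps of 50 bases (line), and the peak of each list (bars) along Hspa1a and Hspa1b, against distance from the transcript start. Each word of the line is placed by its downstream end. The longest repeated run, from the upstream end of its first word, begins 387 bases after the start, shortly before the peaks end. The peaks also cover repeated stretches from −150 to −1 and from 200 to 349, and 81.6% of the words in the 1000 bases upstream occur once. The part of repeated sequence in where the peaks end was not tested.

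The CpG content of the pair lay within the range of the other members. The observed-to-expected CpG ratio within 1000 bases of the main start was 0.813 at Hspa1a and 0.840 at Hspa1b, at percentiles 92.4 and 94.5 of all coding genes, and 0.629 (Calr) to 0.901 (Hsp90aa1) over the other members. Domains were wider at CpG-rich promoters, with a median of 2849 bases in decile 10 of the ratio, where both genes fell. Among the 2165 marked genes of that decile, Hspa1a stood at percentile 1.59 of width and Hspa1b at 3.21, against 48.4 for Hsp90aa1, 57.5 for Dnajb1 and 96.7 for Hspa5 in the same decile.

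The other inducible genes had domains of ordinary or large size. Dnajb1, the Hsp40 that hands clients to Hsp70, had 2903 bases in pool J, 3689 in pool I and 3059 in the replicated list (chr8:83607262-83610320), and enrichments of 17.23, 23.85 and 23.37. Its ratio between the pools in width, 1.27, was the largest among the members, and pool J had an enrichment percentile of 33.6, against 66.4 for pool I. In pool J the domain was 2 peaks broken 82 bases apart just before the start. In pool I a further peak of 434 bases with an enrichment of 3.01 extended it into exon 3 of 3. Tecr, an enzyme gene of fatty acid elongation, starts 222 bases away on the opposite strand within the same domain, so the mark cannot be assigned to either.

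Hsph1, an Hsp110 nucleotide exchange factor, had 3892 bases in pool J, 3728 in pool I and 3730 in the replicated list, with enrichments of 24.04, 22.24 and 23.72. The replicated domain (chr5:149633442-149637171) was 1 peak in every list, reached into intron 2 of a 19-exon transcript, and covered 7 of the 9 annotated starts. Hsph1 was the only one of the 7 members with a RefSeq promoter to hold a heat shock element triple, 3 alternating units of the element in a row, which 0.603% of promoters held. The pair was found at Hspa1a, Hspa1b and Hsph1 and had 0 matches at both RefSeq starts of the inducible Dnajb1. The triple overlaps both of its downstream pair matches and is shown with the units in capitals.
Hsph1 triple: TTCtgGAAagTTC
It lies 36 to 48 bases after the first RefSeq start, at chr5:149636288-149636300 of GRCm38.p6 on the minus strand. The remaining pair match lies from −33 to −26 of that start. The paralog Hspa4 had a domain of 2742 bases and an enrichment of 21.57 in the replicated list, and the 2 coding sequences were 65.0% identical.

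Hsp90aa1, the inducible cytosolic Hsp90, was narrower but strong. It had 2530 bases in pool J, 2843 in pool I and 2821 in the replicated list (chr12:110694339-110697159), with enrichments of 30.23, 28.70 and 30.28, at percentiles 93.4, 89.1 and 92.6. Of its 8 annotated starts 6 carried a peak, and the 5′-most start, at −6333, had none in any list. When only 5′-most starts were used, Hsp90aa1 was therefore the single member without a peak. The domain ended in exon 4 in pool J and in exon 5 in the other lists, and 47.3% of the 36-base words in the next 1000 bases occurred once in the genome.

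**Figure D3:**
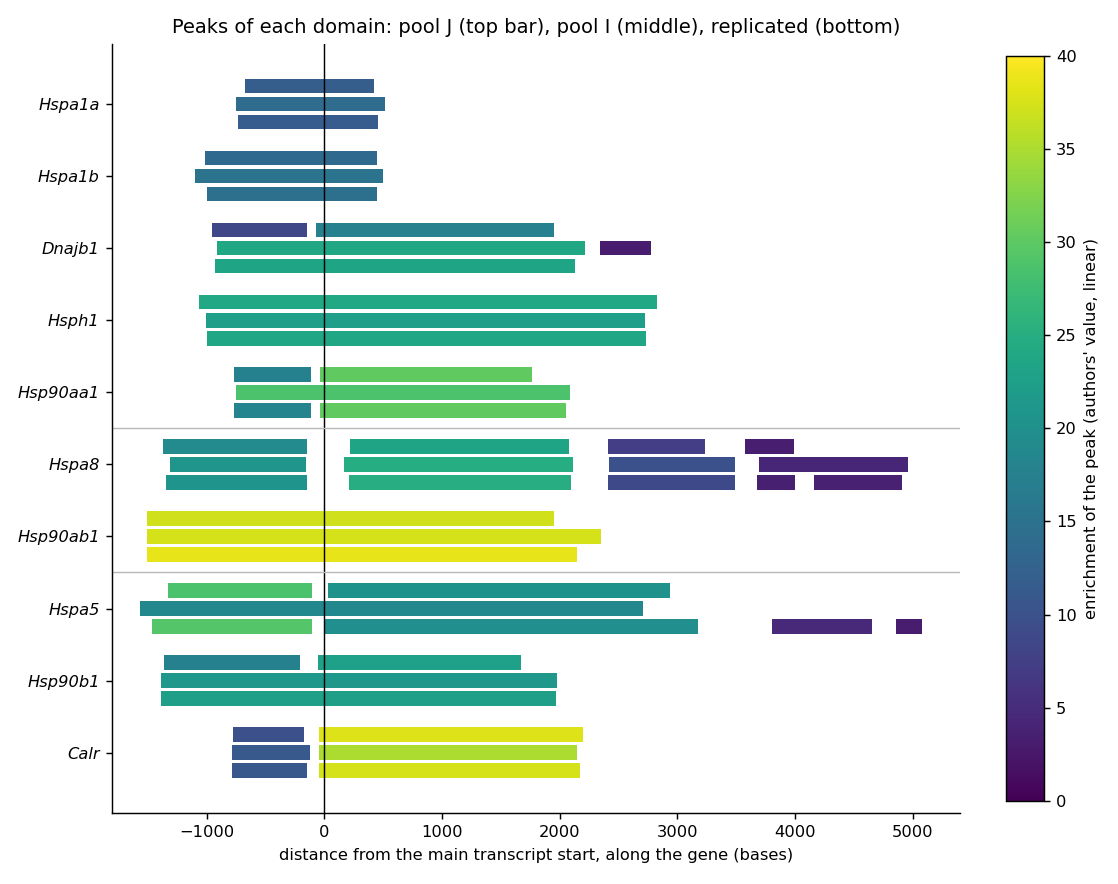
Extent of the peaks of each member along its gene, in bases from the main transcript start (vertical line), for the heat-inducible genes (top 5 rows), the cytosolic constitutive genes (next 2) and the reticulum genes (last 3), coloured by the enrichment of the peak. The Hspa1a and Hspa1b peaks stop within 517 bases downstream of the start. The Hspa8 domain in every list and the Hspa5 domain in the replicated list continue as weak peaks with enrichments of 3.01 to 9.88.

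Of the constitutive cytosolic genes, Hspa8 had the widest pool domains and Hsp90ab1 the highest enrichment. Hspa8 encodes the constitutive Hsp70 (Hsc70), which in neurons also uncoats clathrin vesicles. Its domain measured 5367 bases in pool J, 6273 in pool I and 6255 in the replicated list (chr9:40799637-40805891). In the replicated list it spanned all 9 exons of the main transcript and ran 691 bases past the last of them. It was made of 5 peaks in the replicated list and 4 in each pool. Domains of 4 or more peaks were 0.924% of all.

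The Hspa8 mark weakened along the gene. The replicated peaks had enrichments of 20.64 upstream of the start, 24.91 just inside the gene, then 8.75, 3.54 and 3.74. The last 2 lay between 3676 and 4907 bases after the start. Between the first 2 peaks was a break of 364 bases in pool J, 323 in pool I and 354 in the replicated list, which covered the start itself. The small nucleolar RNA genes Snord14c, Snord14d and Snord14e, which lie within Hspa8 and whose products guide ribosomal RNA modification, start in the domain 2599, 3011 and 3764 bases after the main start. Over the domain, 71.1% of the 36-base words occurred once in the genome, and 65.1% in its part downstream of the start.

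Hsp90ab1, the constitutive cytosolic Hsp90, was among the most enriched promoters of the tissue. Its enrichment was 37.12 in pool J, 37.43 in pool I and 38.59 in the replicated list, at ranks 19 of 14027, 5 of 14222 and 4 of 14293 marked genes. The domain was a single unbroken peak of 3457, 3857 and 3652 bases (chr17:45571127-45574778 in the replicated list) and had its highest point 186 to 195 bases after the start in the 3 lists. The inducible paralog Hsp90aa1, with a coding sequence 75.6% identical, was at lower enrichment in each list, with 30.23, 28.70 and 30.28. It was also narrower in each list, with 2530, 2843 and 2821 bases.

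The Hsp70 pair showed a wider gap in width when peaks were merged over up to 1000 bases. Hspa1a, whose coding sequence was 74.0% identical to that of Hspa8, had 1094, 1267 and 1191 bases against 5367, 6273 and 6255 for Hspa8. With only touching peaks merged, the gap was not the wider one. The replicated widths were then 1191 bases at Hspa1a and 1890 at Hspa8, against 2089 at Hsp90aa1 and 3652 at Hsp90ab1. Dnajb1 and its relative Dnajb4, 64.2% identical, had 3059 and 3857 bases in the replicated list and enrichments of 23.37 and 23.09. The enrichments differed more in pool J, with 17.23 at Dnajb1 and 22.87 at Dnajb4, and in pool I they were 23.85 and 24.89.

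The 3 reticulum chaperones shared a promoter element. Calr encodes calreticulin, a calcium-binding lectin chaperone, Hspa5 the Hsp70 of the reticulum (BiP), and Hsp90b1 its Hsp90 (GRP94). The endoplasmic reticulum stress element, which is CCAAT followed by 9 bases and CCACG on either strand, was found in the RefSeq promoters of all 3, with 2 matches at Hsp90b1. It was in 0.119% of all promoters and in none of the 4 inducible members that had one. The letters are printed in the direction of each gene, with the fixed parts in capitals.
Calr element: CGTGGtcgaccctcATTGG
Hspa5 element: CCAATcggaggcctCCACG
Hsp90b1 upstream element: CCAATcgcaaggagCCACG
Hsp90b1 downstream element: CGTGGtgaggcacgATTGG
On GRCm38.p6 they lie at chr8:84847075-84847093 (minus strand), chr2:34772025-34772043 (plus), chr10:86705638-86705656 and chr10:86705533-86705551 (both minus). Each includes a CCAAT box. The Hspa5 element lies after the main start of the gene, which is 120 bases upstream of its RefSeq start. The 3 members without a RefSeq promoter are Hsp90ab1, Hsp90aa1 and Hspa8.

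Calr had 2971 bases in pool J, 2935 in pool I and 2957 in the replicated list (chr8:84844761-84847717), and its enrichment of 37.95, 35.09 and 37.37 stood at ranks 10, 50 and 11 of the marked genes. Its domain was the most alike in width between pools after that of Hspa5, with a ratio of 1.01. The 250 bases before its RefSeq start (chr8:84846932-84847181, minus strand) are shown as those of the most enriched member that has a promoter in the table, with the stress element in capitals.
Calr promoter: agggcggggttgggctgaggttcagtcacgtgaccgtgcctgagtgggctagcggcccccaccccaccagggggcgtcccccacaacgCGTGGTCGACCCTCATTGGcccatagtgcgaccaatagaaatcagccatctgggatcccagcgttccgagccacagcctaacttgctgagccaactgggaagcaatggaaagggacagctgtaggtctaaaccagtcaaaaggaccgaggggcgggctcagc
In all 3 lists the domain was 2 peaks with a break of 81 to 125 bases before the start. The element, from −162 to −144 of the RefSeq start, lay close to the upstream edge of that break. The main start is 3 bases upstream of the RefSeq start, and the upstream peak ended at −169, −126 and −145 of it in pool J, pool I and the replicated list. The upstream peak had an enrichment of 9.72 in pool J, 10.97 in pool I and 10.82 in the replicated list, well under the downstream peak. The non-coding gene 1700122E12Rik starts 254 bases away on the opposite strand.

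Hspa5 varied most in enrichment between the pools and between list types. Its width was 4263 bases in the pool J list, 4279 in the pool I list and 6544 in the replicated list (chr2:34770507-34777050). Of the 2281 bases added over pool J, 1905 lay past the end of the second peak: 2 weak peaks of 854 and 222 bases near the end of the gene, with enrichments of 4.56 and 3.01, and the breaks of 628 and 201 bases before them. The weaker was the only one of the 19 replicated peaks in the members' domains that the list called on pooled reads did not hold. In pool I the nearest further peak lay 1094 bases from the domain, just outside the merging distance of 1000 bases, a break wider than either of these. In pool J it lay 15217 bases away, so the pool J list held no peak where the 2 weak peaks lie. The replicated domain thus covered 91.1% of the gene, against 52.6% for the pool J domain and 48.6% for that of pool I. The enrichment was 28.67 in pool J, 18.70 in pool I and 29.29 in the replicated list, at percentiles 88.9, 39.1 and 89.8. In pool J and the replicated list the highest peak was a separate upstream one with its highest point at −372 and −437, with a second of 20.45 and 19.81 inside the gene. The cytosolic Hspa8, 64.4% identical to Hspa5 in coding sequence, did not share this pattern and had its highest point at 492 to 497 in the 3 lists. In pool I, 1 unbroken peak of Hspa5 covered both positions and had its highest point at 326.

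Hsp90b1 had 3037 bases in pool J, 3364 in pool I and 3356 in the replicated list (chr10:86703541-86706896), with enrichments of 22.56, 21.33 and 22.48. Of its 5 annotated starts 2 were marked in each list. The domain also covered 3 starts of Ttc41, a tetratricopeptide repeat gene, the nearest 302 bases away on the opposite strand, and a microRNA gene model, Gm25745. The pair Hsp90ab1 and Hsp90b1, 55.2% identical in coding sequence, differed far more in enrichment (38.59 and 22.48) than in width (3652 and 3356 bases).

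The widest 5% of domains began at 5170 bases in the replicated list, which took in 2 of 10 members, against 5.0% of marked genes. Hspa5 and Hspa8 were inside it and Hsph1, at 3730 bases, was the nearest outside. In each pool list Hspa8 alone was inside. Breaks between peaks that reached within 300 bases of the main start, counted after the values were seen, were found at 6 members in pool J, 2 in pool I and 4 in the replicated list, against 5.89%, 6.40% and 6.12% of all marked genes. Hspa8 and Calr had one in all 3 lists. Divergent coding partners lay in the domains of Hspa1a, Dnajb1 and Hsp90b1, and the share of all marked genes with such a partner was not counted.

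The rest of the chaperone system was mostly marked. Of 86 further annotated chaperone and co-chaperone genes, 79 were marked in pool J, 79 in pool I and 80 in the replicated list, against 65.2% of all coding genes in the last, and their replicated median was 2338 bases. Hspa1l is counted among them through the domain of the member Hspa1a, which it shares. The unmarked genes were the small heat shock protein genes Hspb7 and Cryaa, the lens crystallin, the calreticulin relative Calr4, and the heat shock factor genes Hsf3, Hsf5 and Hsfy2. Small heat shock protein genes were weak, with a median enrichment percentile of 7.43 over 7 marked genes. Hspb9 had 286 bases in the replicated list and no peak in either pool, and the strongest of the group, Hspb6, had an enrichment of 15.56. Hspb2 and Cryab shared 1 domain of 2989 bases.

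The other groups varied widely, and the values here are of the replicated list unless a pool is named. The widest domain was that of the Hsp40 gene Dnajb5, with 6874 bases, and the next that of Stub1, a ubiquitin ligase that acts with Hsp70, with 6093 bases, while pool J had 3065 and pool I had 6114. The most enriched were Dnajc3, a reticulum Hsp40, at 34.81, Manf, a secreted reticulum stress protein, at 34.17, and the prefoldin subunit gene Pfdn4 at 33.08, which were all under Calr and Hsp90ab1. In the pool lists Fkbp4, a co-chaperone of Hsp90, was the most enriched of these genes (35.06 for J, 35.53 for I), and in the second it exceeded the 35.09 of Calr. Among Hsp70 relatives Hspa2 was widest at 4646 bases. Of the chaperonin subunit genes Cct7 was widest at 3153 bases and Cct2 most enriched at 31.90. The mitochondrial partners Hspd1 and Hspe1 shared a domain of 3250 bases, and Trap1, the mitochondrial Hsp90, was the most enriched of its group at 29.25. Prefoldin genes had the lowest median width of the 9 groups, at 1781 bases, with Pfdn5 the widest at 2082. Among co-chaperones Fkbp4 was most enriched at 31.34, and among reticulum folding genes Pdia3 was widest at 3908 bases. In the heat shock factor group Hsf4 was widest at 2598 bases. The most enriched there was Hsbp1 at 32.11, which encodes a protein that binds a heat shock factor and is not one itself. Among the factor genes Hsf2 was most enriched at 28.89.

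**Figure D4:**
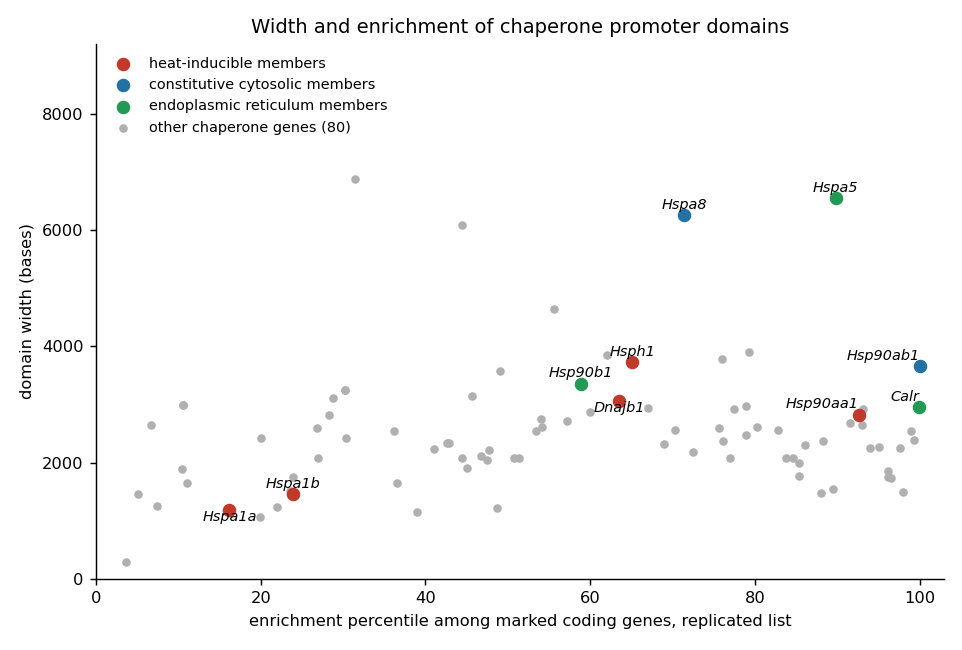
Domain width in bases against enrichment percentile in the replicated list for the 10 members (large points, by role) and 80 other marked chaperone genes (grey). Hspa1a and Hspa1b sit at the lower left, Hsp90ab1 and Calr at the right edge and Hspa8 and Hspa5 at the top. The grey gene Hspa1l has the values of Hspa1a, since they share a domain.

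**Figure D5:**
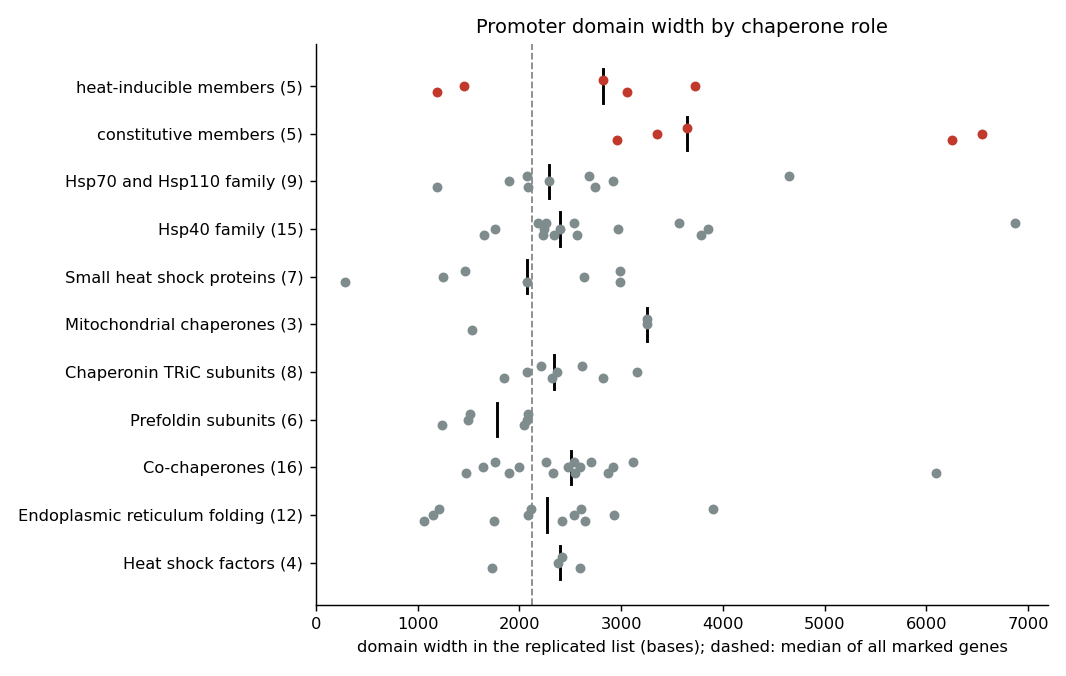
Domain width in bases in the replicated list for the heat-inducible and constitutive members and for 9 groups of other chaperone genes, with 1 point per marked gene and a bar at the median. The constitutive members have a median of 3652 bases and the prefoldin subunits 1781, and the dashed line marks 2124 bases, the median of all marked genes. Hspa1l, in the Hsp70 and Hsp110 family, is shown with the domain it shares with Hspa1a.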

How the data were processed

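H3K4me3 ChIP-seq peak lists of left cerebral cortex were analysed by gene. Groups are the pools that the labels name, 2 libraries each of pool J and pool I, and both libraries of a pool share 1 list. The authors deposited lists called on each pool, on the pooled reads of both and a replicated list, on mm10, per the deposited text files. Of the 25446 replicated peaks 96.7% had the same ends as a peak of the pooled-read list, so the replicated list is largely a filter of that one. Not given in the sources used here: the aligner, the peak caller with its settings, and the treatment of multiply matching reads. Depth is unknown, so no counting interval can be given. The deposited enrichment of a peak is a ratio, taken as fold over a control. The deposited −log10 q of a peak served as a filter in alternatives.

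Gene models were those of GENCODE M21. The main start is that of the principal transcript by APPRIS tags, and upstream and downstream are measured from it. A start had to lie within 1000 bases of a peak, with at least 1 base of overlap with the window. Width percentiles use all marked protein-coding genes of the same list. Means and SDs are over 2 pools, without any p-value. The labels do not say whether the pools hold separate animals, so their spread may be partly technical. Members, groups, the wider list, motifs and alternatives were chosen with earlier results of these data known. The genes named are the members, the partners of paralog pairs, genes starting in a member's domain, and of each wider group the widest, the most enriched and the unmarked.

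Peak ends fell within the lengths of the GRCm38 chromosomes. Words of 36 bases (50 as an alternative) were counted over 21 chromosomes, both strands. Promoters came from RefSeq (GRCm38.p6), 300 bases each, for 7 of 10 members. Coding sequences were aligned globally with Biopython 1.88 and identity is a percent of the longer sequence. Python 3.11.15, NumPy 2.4.6, SciPy 1.17.1 and Matplotlib 3.10.9 were used. Domain calling and word counting were tested on simulated data.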

Additional observations from a re-analysis of the deposited data

How the results depend on the processing

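No paired analysis was possible because each pool has 1 peak list and no groups of samples were compared. Leaving out a pool gave a median member width of 3004 to 3526 bases, a median enrichment percentile of 62.3 to 66.5, 1 member in the widest 5%, and a width difference between heat-inducible and constitutive members of −1014 to −927 bases. Merging only touching peaks gave a median width of 2638 bases, 0 members in the widest 5% and a difference of −1091 bases; a −log10 q of at least 10 also left 0 members in the widest 5%. The difference was −1397 bases with 5′-most starts, where Hsp90aa1 had no peak and dropped out of the heat-inducible group. It was −1249 with Hsp90aa1 counted as constitutive and −712 with Hspa1a and Hspa1b counted once. It was −2132 without the reticulum genes and −593 without Hspa1a and Hspa1b (−168 in the pool I list). It kept its sign in every alternative run, as did the enrichment difference (−55.3 to −13.9, with an SD of 29.3 between the pools). The alternatives reuse the same libraries and genes, which were selected on these values, so the constant sign is no test. Without Hspa1a and Hspa1b, the pool I medians of enrichment percentile were 66.4 for heat-inducible and 72.0 for constitutive members. Words of 50 bases gave shares of the domain found once of 62.3% at Hspa1a, 69.5% at Hspa1b, 74.9% at Hspa8, 85.9% at Hsp90aa1, 98.4% at Hspa5, 98.7% at Hsph1 and 100% at Hsp90ab1. Hspa1a and Hspa1b stayed the narrowest and least enriched members, and Hsp90ab1 and Calr the most enriched, in 11 of 11 settings. Hspa8 fell to 1890 bases and Hspa5 to 3180 when peaks were not merged. Depth is unknown, so weak peaks in 1 list and not another may be a matter of depth, which was not tested.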
